A study of Mus musculus with 7 samples.

Results

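Hmga2 lies on mouse chromosome 10, and the 9 genes described here are the nearest protein-coding genes on each side of it. These are Llph, Tmbim4, Irak3, Helb, Grip1 and Cand1 before it, and Msrb3, Lemd3 and Wif1 after it. They were taken by name, out of 19324 genes that the platform table pairs with a probe set, and every probe set of each was kept. In the reference gene table the stretch from Cand1 to Wif1 holds 10 protein-coding genes, which are these 9 and Hmga2. Whether a gene beyond Wif1 lies closer to Hmga2 than Cand1 does was not examined. The platform table pairs 19 probe sets with 8 of the 9 genes and with no other gene. For Llph it lists a single probe set, shared with its pseudogenes Llph-ps1 and Llph-ps2, whose values are given apart and counted nowhere.

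The study measured gene expression on 7 Affymetrix arrays, each hybridised with cRNA from untreated myoblasts, the cells from which skeletal muscle fibres form by fusion. The 4 Hmga2 KO samples came from mice labelled HMGA2 -/- on the C57BL/6 background (replicates 1 and 3 male, replicates 2 and 4 female), and the 3 wild type samples from female C57BL/6 mice. The sources used here do not give how the allele was made, what it removes, the strain of the DNA beside it or the age of the mice. In each group the samples are biological replicates by their labels, and the small number of arrays limits precision.

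Genes that lie side by side on a chromosome can share enhancers and chromatin domains, and they are inherited together with a targeted allele. Hmga2 itself encodes a small chromatin protein with AT-hooks, which bind AT-rich DNA. Its neighbours have unrelated tasks. Irak3 (IRAK-M) restrains signalling from Toll-like receptors, Helb is a DNA helicase, Grip1 a scaffold with PDZ domains and Tmbim4 a Golgi membrane protein that protects from apoptosis. Cand1 exchanges the substrate receptors of cullin ubiquitin ligases, and Llph is a nucleolar protein. Msrb3 repairs oxidised methionine, Lemd3 (MAN1) is an inner nuclear membrane protein that binds receptor Smads, and Wif1 is a secreted inhibitor of Wnt ligands.

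The bases before the annotated start are shown for the 3 genes whose groups did not overlap on their brightest probe set (Irak3, Lemd3 and Msrb3) and for Cand1, the neighbour whose brightest probe set had the lower mean in Hmga2 KO. They were taken from RefSeq on GRCm38.p6, cover chr10:120202131-120202380, chr10:120979397-120979580, chr10:120899012-120899221 and chr10:119240056-119240305, leave out bases inside the gene itself, and are written along the minus strand, on which all 4 genes lie. Capitals mark matches, on either strand, of AATATT and of AATT, short AT-rich words, and of the TATA box word TATAAA. No motif contains another.
Irak3: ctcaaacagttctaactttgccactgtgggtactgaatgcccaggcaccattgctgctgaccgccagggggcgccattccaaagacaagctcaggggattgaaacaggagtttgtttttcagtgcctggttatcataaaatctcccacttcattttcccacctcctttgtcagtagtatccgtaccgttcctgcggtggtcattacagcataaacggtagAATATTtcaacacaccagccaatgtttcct
Lemd3: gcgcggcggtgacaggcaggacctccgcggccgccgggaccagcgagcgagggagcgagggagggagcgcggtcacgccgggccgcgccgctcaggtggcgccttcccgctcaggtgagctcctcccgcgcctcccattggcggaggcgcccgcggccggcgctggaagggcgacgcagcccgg
Msrb3: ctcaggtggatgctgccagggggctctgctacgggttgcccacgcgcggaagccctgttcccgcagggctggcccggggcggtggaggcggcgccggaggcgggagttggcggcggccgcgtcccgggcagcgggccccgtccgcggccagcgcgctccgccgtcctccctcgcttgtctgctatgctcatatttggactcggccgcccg
Cand1: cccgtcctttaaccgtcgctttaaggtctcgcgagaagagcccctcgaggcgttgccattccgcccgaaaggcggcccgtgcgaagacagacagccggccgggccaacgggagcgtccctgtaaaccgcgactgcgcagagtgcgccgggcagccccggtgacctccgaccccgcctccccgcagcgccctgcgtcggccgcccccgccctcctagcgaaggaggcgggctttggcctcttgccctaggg
The stretch before Irak3 held 1 AATATT, and none of the 3 motifs was present in the printed stretches of Lemd3, Msrb3 and Cand1. AT bases made up 52.4% of the stretch of Irak3, 20.1% of that of Lemd3, 24.3% of that of Msrb3 and 28.8% of that of Cand1. Irak3 has another annotated start, inside the gene and not printed. The 250 bases before it had 33.6% AT and none of the motifs. Over the 250 bases before each of 32851 starts in the table, the median AT share was 47.6% (quartiles 38.8% and 54.8%). The printed stretches of Lemd3 and Msrb3 are shorter, with 184 and 210 bases. Over the full 250 bases each of the 2 had 25.6%. AATATT stood in 6.17% of those windows, AATT in 47.1% and TATAAA in 12.4%. The table gives 11 starts for 8 of the neighbours, of which 2 had AATATT (1 of Irak3 and 1 of Grip1), 3 had AATT (Llph, Msrb3 and Grip1) and 3 had TATAAA (Llph, Wif1 and Grip1). The AATT of Msrb3 lies within the annotated gene and so outside the stretch printed. Binding was not measured in these samples.

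Each value is the intensity of a probe set on a linear scale, scaled by the authors to a median of 150 per array. The lowest intensity of an array was 33.2 to 36.7. Y-linked probe sets in the 5 female samples, which lack those genes, read 33.9 to 58.2, and this range is used here as the background. Across probe sets, which are not independent replicates, pairs of samples correlated at 0.980 to 0.993 on the log2 scale. RNA integrity, read as the 3' over 5' signal of the Actb controls, gave 1.64 to 1.74 in Hmga2 KO, against 1.62, 1.94 and 1.61 in wild type, so wild type replicate 2 stood apart. Hmga2 had 96.6, 85.7, 96.7 and 104 on its brightest probe set in Hmga2 KO, against 11999, 9998 and 12799.9 in wild type, a 119-fold lower level, so the samples carry the loss that their labels state.

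All 12 myoblast markers were above the background, with mean log2 values of 12.54 in Hmga2 KO and 12.44 in wild type for Pax7. Myod1 had 13.85 in Hmga2 KO and 13.91 in wild type. Of the 12 markers, 8 had the lower mean in Hmga2 KO, against 12292 of all 18193 genes. Their changes ran from -0.60 for Itga7 to 0.64 for Myf5. The summed intensity of the 12 was 73966 to 91084 in Hmga2 KO and 86713 to 90498 in wild type. All 27 sarcomere genes, the markers of differentiated muscle, had the lower mean in Hmga2 KO, where 32.4% of all genes had the higher mean, with a summed intensity of 61853 to 140258 in Hmga2 KO and 120427 to 170785 in wild type. The 15 measured genes of the fibroblast list summed to 25847 to 27338 in Hmga2 KO and 22256 to 23035 in wild type. That sum rested most on Col3a1 and Tcf4, the brightest of the list in every sample, with changes of 0.12 and 0.07. The means of Lum and Dpt lay within the background in both groups. The summed ranges overlapped for the endothelial list (7 genes, 508 to 539 in Hmga2 KO and 536 to 590 in wild type), the leukocyte list (8 genes, 814 to 855 in Hmga2 KO and 749 to 881 in wild type), the Schwann list (4 genes, 375 to 489.6 in Hmga2 KO and 277 to 507 in wild type) and the smooth muscle list (6 genes, 18729.6 to 27132 in Hmga2 KO and 17104 to 26098 in wild type). Adjusted over all probe sets, 0 genes of these 7 lists passed by limma. Unadjusted, p was under 0.05 with the lower mean in Hmga2 KO for 3 myoblast and 13 sarcomere genes and with the higher mean for 4 fibroblast genes and 1 smooth muscle gene, against 10.4% of all genes with the lower mean and 3.06% with the higher. The fibroblast sum was higher in every Hmga2 KO sample, the direction described below for most neighbours, but the mean log2 value of the same list overlapped, with 8.91, 8.40, 8.62 and 8.47 in Hmga2 KO, against 8.59, 8.21 and 8.27 in wild type. The groups did not overlap for 2 of its 15 genes, Mgp and Smoc2, both higher in Hmga2 KO, against 2.37% of all genes in that direction. The sums of the sarcomere list overlapped. Of its 27 genes, Myh8, Tcap, Casq2 and Ttn were lower in Hmga2 KO without overlap, against 9.29% of all genes in that direction. The part of these lists in the neighbours' values was not tested. In bulk samples such as these, fewer cells of a type and less RNA per cell cannot be told apart.

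The test across all probe sets called no neighbour, but 18 of the 19 probe sets had the higher mean in Hmga2 KO, against 37.9% of all 45037 probe sets. On the brightest probe sets of Irak3, Lemd3 and Msrb3, every Hmga2 KO sample lay above every wild type sample. By limma with adjustment over all probe sets, 0 of 19 had an adjusted p under 0.05, a level that 0.0178% of all probe sets reached (8, of which 3 belong to Hmga2). Without adjustment 3 of 19 had a p under 0.05, all with the higher mean in Hmga2 KO, where 3.73% of all probe sets had such a p in that direction and 7.9% in the other. That count was 9 with quantile normalization and 2 without wild type replicate 3 or without Hmga2 KO replicate 3. In either direction, 11.6% of all probe sets had such a p as reported and 10.3% with quantile normalization. The share was 6.86% without wild type replicate 3 and 8.15% without Hmga2 KO replicate 3. Groups did not overlap in that direction for 3 of 19, against 2.77% of all probe sets, and in the other direction for 0 of 19, against 7.71%. The median change of the 19 probe sets was 0.18 on the log2 scale, and that of all probe sets -0.05. Probe sets of 1 gene share their transcripts, so the 19 are not independent of each other. The loss of Hmga2 and any other difference in the DNA beside it cannot be told apart in these groups.

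**Figure D1:**
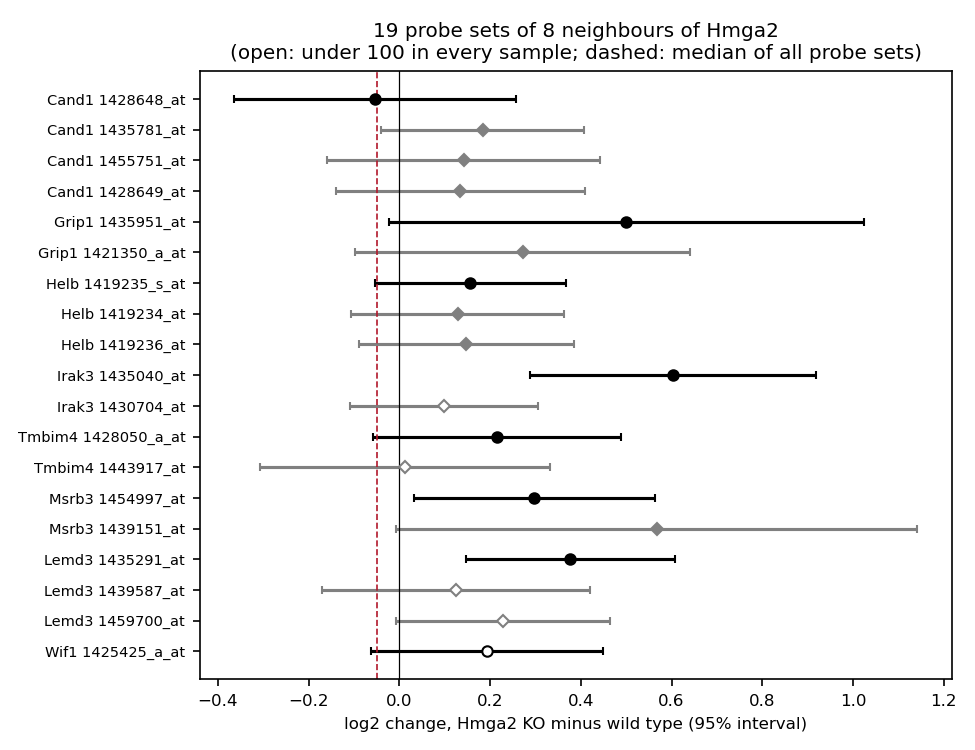
Log2 change, Hmga2 KO minus wild type, of the 19 probe sets with its 95% interval from limma, in the order of the genes along the chromosome. Circles are the brightest probe set of a gene and diamonds the others, open symbols mark probe sets under 100 in every sample, and the dashed line is the median of all probe sets (-0.05). All points but that of the brightest Cand1 probe set lie above 0, and the intervals of Irak3, Lemd3 and Msrb3 exclude 0 on their brightest probe set before adjustment.

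Before Hmga2, the closest gene is Llph. The probe set that it shares with Llph-ps1 and Llph-ps2 read 4323, 3546, 4369 and 2903 in Hmga2 KO, against 3006, 3106 and 3390 in wild type. Hmga2 KO replicate 4 was the lowest of all 7 samples and the other 3 Hmga2 KO samples the highest, so the groups overlapped (change 0.24, SE 0.15, adjusted p = 0.552, limma). The signals of the gene and its pseudogenes cannot be told apart.

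Tmbim4 follows. Its brightest probe set read 2046, 2545, 2387 and 2145 in Hmga2 KO, against 1699, 2027 and 2177 in wild type. Hmga2 KO replicates 2 and 3 were the highest and wild type replicate 1 the lowest, while Hmga2 KO replicates 1 and 4 lay within the wild type range. The change was 0.22 on the log2 scale (95% interval -0.06 to 0.49, adjusted p = 0.515, limma), and 0.11 without wild type replicate 1. The other Tmbim4 probe set was dim, with 57.8 to 84.5 in Hmga2 KO and 62.1 to 80.5 in wild type, and a change of 0.01.

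Irak3 had the largest change of the brightest probe sets of the 8 genes. It was a dim gene in these cells, and its brightest probe set read 139.9, 151, 146 and 129.6 in Hmga2 KO, against 101, 109 and 73.0 in wild type. The groups did not overlap, and wild type replicate 3 was the lowest sample. The change of 0.60 (SE 0.14, 95% interval 0.29 to 0.92), a 1.52-fold higher level, was larger in size than that of 98.1% of all probe sets, with an adjusted p = 0.260 (limma) and a two-sided exact permutation p = 0.0286, which is the lowest value that 35 splits can give. Without wild type replicate 3 the change was 0.43, and in females alone 0.59. The other Irak3 probe set, closer to the background, read 70.6 to 77.9 in Hmga2 KO and 64.6 to 72.5 in wild type, a change of 0.10 (adjusted p = 0.706), so the 2 probe sets differed in size. A low signal understates a fold on this scale.

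Helb was bright and steady. Its brightest probe set read 2288, 2231, 2458 and 2253 in Hmga2 KO, against 2241, 2021 and 1954 in wild type. Only Hmga2 KO replicate 2 fell within the wild type range, just under wild type replicate 1 (change 0.16, 95% interval -0.05 to 0.37, adjusted p = 0.538, limma). The exact permutation p was 0.0571. Its dimmer probe sets had changes of 0.13 and 0.15, so the 3 Helb probe sets gave much the same value, although none passed.

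Among the brightest probe sets, that of Grip1 varied most within each group. That probe set read 455, 849, 535 and 529.96 in Hmga2 KO, against 367, 555 and 329 in wild type. Replicate 2 was the highest sample in each group, and 3 of the 4 Hmga2 KO samples lay below wild type replicate 2. The change of 0.50 had a wide interval (95% interval -0.02 to 1.02, adjusted p = 0.445, limma), and was 0.31 without Hmga2 KO replicate 2 and 0.72 without wild type replicate 2. On the dimmer Grip1 probe set replicate 2 was again the highest sample of each group, with 113, 165, 132 and 114 in Hmga2 KO, against 94.5, 132 and 98.4 in wild type (change 0.27, adjusted p = 0.541, and 0.16 without Hmga2 KO replicate 2).

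Cand1, the farthest of the 9 from Hmga2, was the neighbour whose probe sets disagreed in sign. The brightest read 3320, 4184, 3752 and 3136 in Hmga2 KO, against 3126, 3894 and 4197 in wild type, groups that overlap over nearly their whole range. Its change was -0.05 (95% interval -0.36 to 0.26, adjusted p = 0.905, limma), and 0.01 with quantile normalization. Leaving out wild type replicate 3 gave 0.04, and leaving out wild type replicate 1 gave -0.18. The other 3 Cand1 probe sets had changes of 0.18, 0.14 and 0.13, of which the first had an exact permutation p = 0.0571 and an adjusted p = 0.499.

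On the far side of Hmga2, Msrb3 comes first and lay well above the background in every sample. Its brightest probe set read 9402, 7929.8, 9469 and 7184 in Hmga2 KO, against 6914, 6678 and 7005 in wild type. The groups did not overlap, and the 2 male samples, Hmga2 KO replicates 1 and 3, were the highest. The change was 0.30 (SE 0.12, 95% interval 0.03 to 0.56, adjusted p = 0.394, limma), with an exact permutation p = 0.0571. In females alone it was 0.14 (adjusted p = 0.885). The other probe set spread widely, with 527, 571, 847 and 393 in Hmga2 KO, against 505, 288 and 376 in wild type, and overlapped (change 0.57, adjusted p = 0.435). Its change was 0.37 without Hmga2 KO replicate 3 or without wild type replicate 2, and 0.32 in females alone.

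Lemd3 gave the narrowest interval among the 3 genes whose groups did not overlap. The brightest probe set read 5255, 4978, 5831 and 5069 in Hmga2 KO, against 4475, 3845 and 3889 in wild type. The lowest Hmga2 KO sample, replicate 2, lay above wild type replicate 1, the highest of its group. The 1.30-fold higher level, a change of 0.38 (SE 0.10, 95% interval 0.15 to 0.61), had an adjusted p = 0.317 (limma) and an exact permutation p = 0.0286. In females alone the change was 0.31, and it ranged from 0.33 to 0.45 when each sample was left out in turn. The other 2 Lemd3 probe sets were close to the background. They read 63.9 to 82.5 and 58.8 to 69.0 in Hmga2 KO, against 57.8 to 74.97 and 48.9 to 59.2 in wild type, with changes of 0.13 and 0.23.

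Wif1 was barely above the background in either group. Its single probe set read 71.2, 75.1, 90.9 and 78.0 in Hmga2 KO, against 62.3, 74.9 and 68.8 in wild type. Hmga2 KO replicate 1 lay within the wild type range and the other 3 above it (change 0.19, 95% interval -0.06 to 0.45, adjusted p = 0.532, limma). The change was 0.12 without Hmga2 KO replicate 3 and 0.13 without wild type replicate 1.

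**Figure D2:**
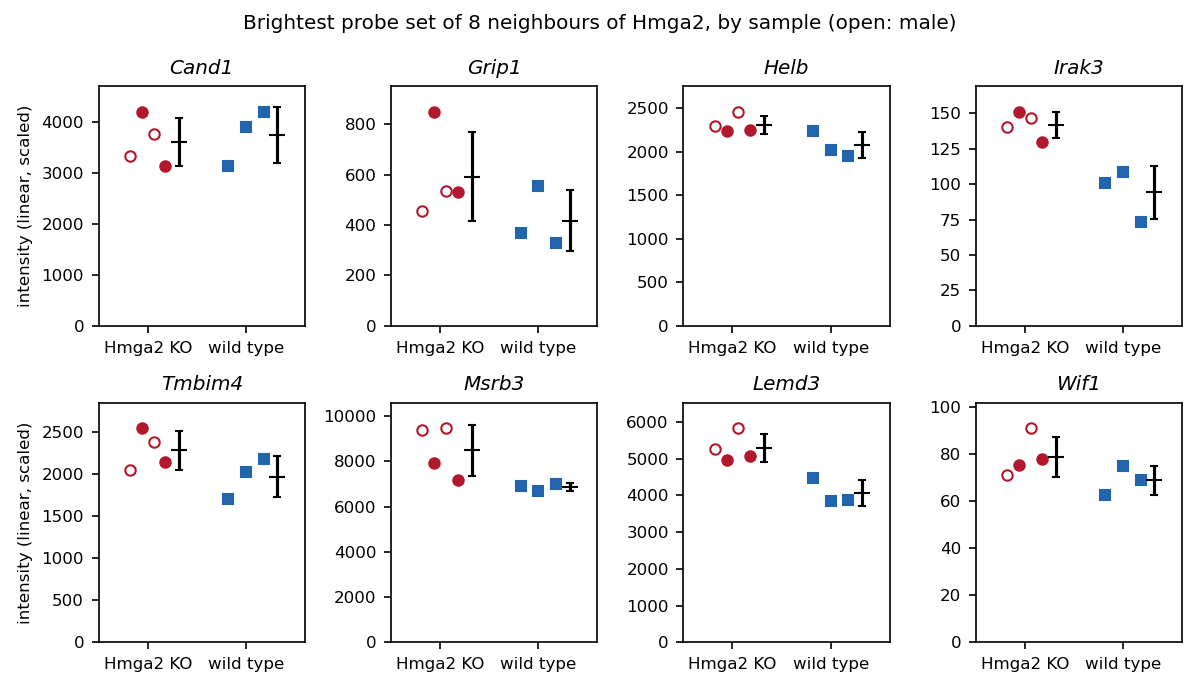
Intensity of the brightest probe set of each of 8 neighbours, by sample, with Hmga2 KO (circles, open for male) left of wild type (squares), and the mean ± SD beside each group on a linear axis that starts at 0. Irak3, Lemd3 and Msrb3 have every Hmga2 KO point above every wild type point, while the 2 groups overlap for the other 5 genes.

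Since all wild type samples were female, male and female Hmga2 KO samples were also compared in a fit with 3 groups. Of the 19 probe sets 0 passed by limma, against 0.0511% of all probe sets. Without adjustment 1 of 19 had a p under 0.05, against 5.32% of all. That was the brightest Msrb3 probe set, with mean log2 values of 13.20 in male Hmga2 KO and 12.88 in female Hmga2 KO (difference 0.32, SE 0.12, adjusted p = 0.859). Against female wild type, Msrb3 differed by 0.46 in males and 0.14 in females, and Lemd3 by 0.45 in males and 0.31 in females. Grip1 went the other way, with 0.28 in males and 0.72 in females, a difference between the sexes of -0.44 (SE 0.28, adjusted p = 1.00). Irak3 differed from wild type by 0.62 in males and 0.59 in females. Because no wild type sample was male, the fit with sex in the model gave the same changes as that in females alone. In that comparison 16 of 19 probe sets had the higher mean in Hmga2 KO, against 41.5% of all.

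**Figure D3:**
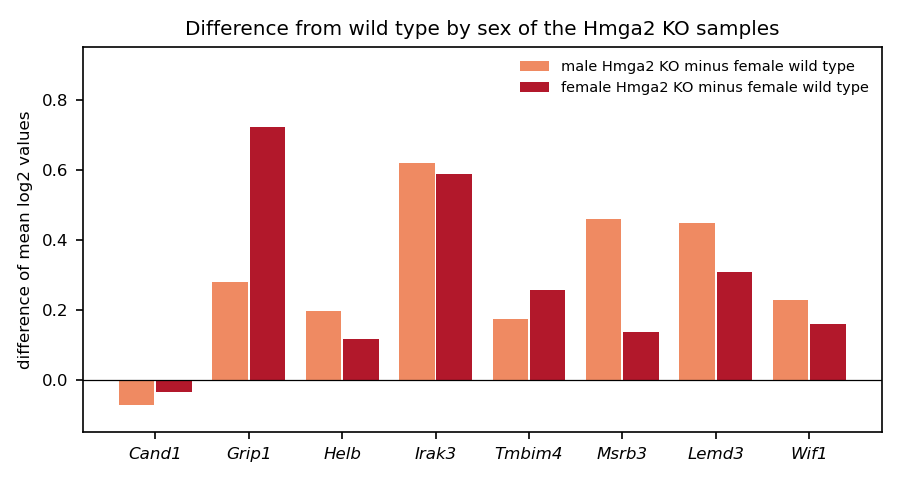
Difference of mean log2 values from the 3 female wild type samples for the brightest probe set of 8 neighbours, with male Hmga2 KO (2 samples) left of female Hmga2 KO (2 samples). Irak3 has bars of nearly equal height, Msrb3 a taller male bar and Grip1 a taller female bar, and no difference between the sexes passed the test.

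The stretch also holds lncRNA genes, 4 of which have a probe set of their own. The one next to Hmga2 on the far side, 1700006J14Rik, read 74.0, 81.6, 75.3 and 78.4 in Hmga2 KO, against 104, 91.3 and 93.0 in wild type. All Hmga2 KO samples lay below all wild type samples, a sign opposite to that of the brightest probe set of 7 of the 8 measured coding neighbours. The level of 1700006J14Rik was not far above the background (change -0.31, SE 0.09, adjusted p = 0.350, limma). Among the rest, 4930471E19Rik had a change of -0.11 and 4921513I03Rik 0.12, the latter near the background with 45.4 to 58.4. Grip1os1 had -0.08 on its brightest probe set and 0.08 on the other. The groups of these 3 genes overlapped. Grip1os1 lies within the extent of Grip1, and its probe sets were near the background.

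The neighbours were then set beside the wider region, the 25 genes with a probe set of their own on each side. By limma 0 of these 50 genes passed, against 0.0275% of all 18193 genes. Without adjustment, 7 of the 50 had a p under 0.05 with the higher mean in Hmga2 KO and 1 with the lower, against 3.06% and 10.4% of all genes. Groups did not overlap for 8 with the higher mean and 2 with the lower, against 2.37% and 9.29% of all genes. The higher mean was in Hmga2 KO for 32 of the 50, against 32.4% of all genes. Leaving out the 8 listed genes, it was in Hmga2 KO for 25 of the other 42, whose median change was 0.05, against 0.26 for the 8 and -0.07 for all genes.

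The region's smallest p-values were not next to Hmga2. The lncRNA gene 4933412E12Rik, in place 24 before Hmga2, read 1057, 855, 839 and 903 in Hmga2 KO, against 648, 545 and 582 in wild type (change 0.62, SE 0.11, adjusted p = 0.202, limma). Lrig3, a transmembrane protein with leucine-rich repeats in place 23 after it, read 509, 688, 620.3 and 437 in Hmga2 KO, against 304, 399.8 and 299.7 in wild type (change 0.74, SE 0.17, adjusted p = 0.260). For neither gene did the groups overlap, and Irak3 had the next smallest p in this direction. In the other direction, after 1700006J14Rik, came Avpr1a, a vasopressin receptor, with a change of -0.76 (SE 0.39, adjusted p = 0.477), and Yeats4, a chromatin reader, with -0.13 (SE 0.09, adjusted p = 0.579). Avpr1a differed from wild type by -1.33 in males and -0.19 in females.

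**Figure D4:**
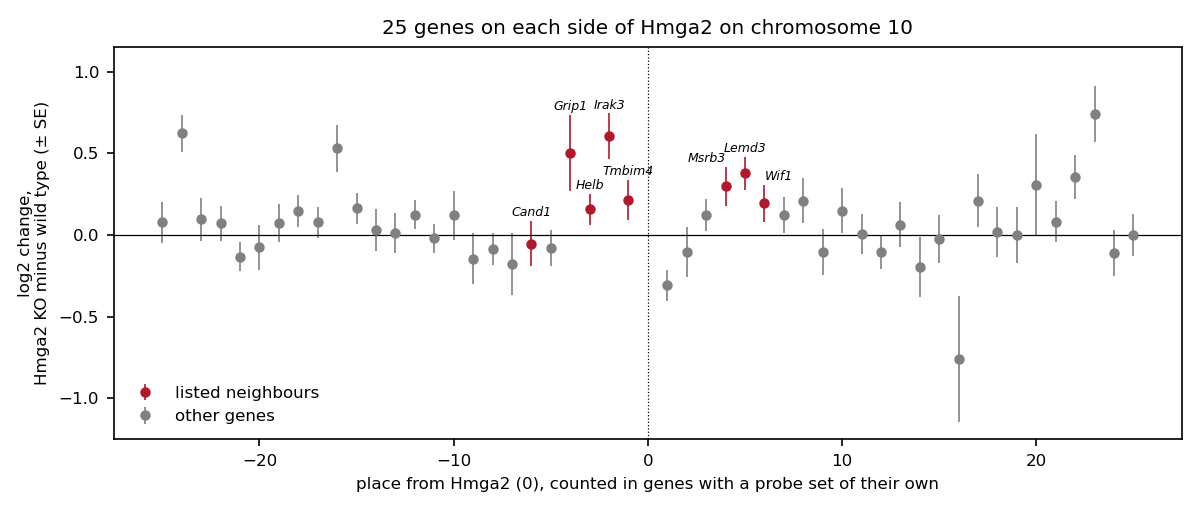
Log2 change, Hmga2 KO minus wild type, ± SE (limma) of the brightest probe set of the 25 genes on each side of Hmga2, placed by their order on the chromosome and not by distance. The listed neighbours are in red and other genes in grey. Apart from Cand1, the listed genes lie above 0, and 4933412E12Rik at place 24 on the left and Lrig3 at place 23 on the right lie as high as or higher than Irak3.

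Genes that work with the neighbours were read from lists, each gene by its brightest probe set, and 0 passed by limma in any list. Their unadjusted counts stand beside the 3.06% of all genes with the higher mean and the 10.4% with the lower given above. Whatever the p, 12292 of all 18193 genes had the lower mean in Hmga2 KO. The lists' counts of genes with the lower mean stand beside that. For Cand1, the cullin cycle list had 33 measured genes, of which 29 had the lower mean in Hmga2 KO (median change -0.19, against -0.07 for all genes). There 0 had an unadjusted p under 0.05 with the higher mean and 8 with the lower. Its smallest p-values were those of Cul9, a cullin, with mean log2 values of 7.45 in Hmga2 KO and 8.003 in wild type (adjusted p = 0.259), and Cops4, a subunit of the COP9 signalosome, with 10.97 in Hmga2 KO and 11.25 in wild type (adjusted p = 0.354).

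For Helb, the replication list had 19 of 20 genes with the lower mean in Hmga2 KO (median -0.27), 7 of them at an unadjusted p under 0.05 and 0 in the other direction. Pola2, of DNA polymerase alpha, had 8.52 in Hmga2 KO and 8.93 in wild type (adjusted p = 0.289), and the helicase Blm 8.76 in Hmga2 KO and 9.05 in wild type (adjusted p = 0.355). All 3 Helb probe sets had the higher mean in Hmga2 KO, the opposite sign. For Irak3, 21 of 24 genes of Toll-like and interleukin-1 receptor signalling had the lower mean (median -0.08), 4 of them at an unadjusted p under 0.05 and 0 in the other direction. Tlr6 had 7.08 in Hmga2 KO and 7.43 in wild type (adjusted p = 0.367), and Il1r1 11.07 in Hmga2 KO and 11.57 in wild type (adjusted p = 0.381).

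For Lemd3, 15 of 19 genes of the inner nuclear membrane and receptor Smads had the lower mean (median -0.10). For all genes that was 12292 of 18193 (median -0.07). Banf1, which binds LEM domains, had 11.27 in Hmga2 KO and 11.57 in wild type (adjusted p = 0.361), was the 1 gene of that list with an unadjusted p under 0.05, and was followed by Smad9 with 7.08 in Hmga2 KO and 7.29 in wild type (adjusted p = 0.463). For Msrb3, 7 of 9 methionine sulfoxide reductase and thioredoxin genes had the lower mean (median -0.12). Unadjusted, 2 passed with the higher mean and 2 with the lower. Msra, the reductase of the other methionine sulfoxide form, had 7.79 in Hmga2 KO and 8.13 in wild type (adjusted p = 0.354), while thioredoxin reductase Txnrd1 had 13.55 in Hmga2 KO and 13.29 in wild type (adjusted p = 0.355).

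For Wif1, 15 of 32 Wnt ligands and their extracellular inhibitors had the lower mean (median 0.02), against 12292 of all 18193 genes (median -0.07). Unadjusted, 3 passed with the higher mean and 1 with the lower. Sostdc1, an inhibitor of Wnt and BMP, had 10.15 in Hmga2 KO and 8.52 in wild type (adjusted p = 0.226), and the ligand gene Wnt5a 10.85 in Hmga2 KO and 9.62 in wild type (adjusted p = 0.336). Of 15 measured Grip1 partners 5 had the lower mean (median 0.06), with 3 unadjusted in the higher direction and 0 in the lower. Frem1, of the extracellular matrix and within the background in all wild type samples, had 6.16 in Hmga2 KO and 5.68 in wild type (adjusted p = 0.366), and the AMPA receptor subunit Gria3 11.27 in Hmga2 KO and 10.96 in wild type (adjusted p = 0.370).

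For Tmbim4, 4 of 6 genes of its family had the lower mean (median -0.13) and 0 passed unadjusted. That is much the same share as the 12292 of all 18193 genes with the lower mean (median -0.07). Faim2, whose means lay within the background, had 5.66 in Hmga2 KO and 5.87 in wild type (adjusted p = 0.585), and Ghitm 13.12 in Hmga2 KO and 13.26 in wild type (adjusted p = 0.597). For Llph, 13 of 16 genes of large ribosomal subunit assembly had the lower mean (median -0.13), 1 of them unadjusted. Pes1 had 10.09 in Hmga2 KO and 10.35 in wild type (adjusted p = 0.419), and Nip7 11.36 in Hmga2 KO and 11.64 in wild type (adjusted p = 0.486).

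Irak3 and Grip1 were the neighbours whose brightest probe set varied enough over the 7 samples (SD of at least 0.3 on the log2 scale) to look for genes of like pattern among 2275 others. Closest to Irak3 were Rian, an imprinted noncoding RNA, with a Pearson r of 0.99, and Sostdc1 with 0.98. Rian had mean log2 values of 13.12 in Hmga2 KO and 12.53 in wild type (adjusted p = 0.275, limma). Closest to Grip1 were Sema3d, a secreted semaphorin, with r of 0.98 and Gsta4, a glutathione transferase, with 0.96. Among the neighbours themselves, Helb and Lemd3 followed each other most closely (r = 0.95), Msrb3 and Lemd3 had 0.84, Irak3 and Lemd3 0.83, and Cand1 and Helb -0.46. These values describe 7 samples that share their arrays and group differences, and for the first 4 genes named many others were searched.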

How the data were processed

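RNA of myoblasts was hybridised to Affymetrix arrays, per the labels' protocols. The authors deposited a linear intensity for each of 45101 probe sets in every sample, scaled to a median of 150 per array, as the values show. The sources used here do not name the summarization or background correction, and detection calls were not used.

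Tests and folds use log2(intensity + 1) of the deposited values. The platform table named the probe sets: it gives 1 gene for 34958, several for 932 and no gene for 9160. Gene identifiers of 34754 were found in RefSeq of GRCm38.p6, which gave the order of genes. Where 1 value per gene was needed (18193 genes), the probe set of highest mean was taken. The 45037 probe sets that are not array controls were tested in R 4.3.3 with limma 3.58.1 (lmFit, eBayes), no covariate and Benjamini-Hochberg adjustment over all (threshold 0.05). Samples were grouped by their titles. Exact permutation used the 35 splits of 7 samples. The scripts were tested on simulated data.

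Named are all 9 genes, the 3 genes with the smallest p in each direction among the 50 around Hmga2, the 2 with the smallest p of each partner list, and the 2 with the highest r to a neighbour with an SD of 0.3 or more. Pax7, Myod1, Lum, Dpt, Mgp, Smoc2 and the lncRNA genes of the stretch were named after their values were seen. So were Itga7, Myf5, Col3a1, Tcf4, Myh8, Tcap, Casq2 and Ttn. Members and lists were chosen with earlier results of these data known. The fit was repeated with sex in the model, on females only, with replicate numbers as blocks, without each sample, after quantile normalization, without the dimmest 40% of probe sets, with array weights, with a trended and robust prior, at a pseudocount of 16, at an adjusted p of 0.1, with values by gene, and 10 or 50 genes on each side.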

Additional observations from a re-analysis of the deposited data

Results flagged for a closer look

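Of 20 Hmga2 KO groups examined, 19 probe sets of the neighbours and the one shared by Llph and its pseudogenes, 1 had a sample far from the others. On the dim Irak3 probe set, Hmga2 KO replicate 1 had a log2 value of 6.30 and the other 3 Hmga2 KO samples 6.16 to 6.17, a gap of 0.94 of the group's range. Chance gives about 1 such group in 20.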

How the results depend on the processing

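No neighbour passed under any alternative run, for the genotype or for male against female Hmga2 KO samples, and no gene passed with 10, 25 or 50 genes on each side. The count of the 19 probe sets with the higher mean in Hmga2 KO was an alternative chosen after seeing the data. It was 16 to 19 over the alternatives that keep all of them, where 36.4% to 47.3% of all probe sets had the higher mean. Without the dimmest 40% it was 13 of 14, against 37.4% of the probe sets kept. Those with an unadjusted p under 0.05 numbered 9 with quantile normalization, against 3 as reported, and 6 with the replicate block. They numbered 5 when wild type replicate 1 was left out and 2 when wild type replicate 3 or Hmga2 KO replicate 3 was. Of all probe sets, in either direction, 11.6% had such a p as reported, 10.3% with quantile normalization and 10% with the replicate block. It was 14.3% without wild type replicate 1, 6.86% without wild type replicate 3 and 8.15% without Hmga2 KO replicate 3. On the brightest probe sets, the lowest adjusted p of Irak3 by limma under any alternative was 0.173 (replicate block). That of Lemd3 was 0.197 and that of Msrb3 0.294 (both without Hmga2 KO replicate 2). The other Msrb3 probe set reached 0.278 (replicate block). The brightest Cand1 probe set changed sign with quantile normalization, with the replicate block and when Hmga2 KO replicate 4 or wild type replicate 3 was left out. The mean over all probe sets of a gene had a change of 0.35 for Irak3, 0.24 for Lemd3, 0.11 for Tmbim4 and 0.10 for Cand1.

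Of all probe sets 8 passed as reported, 15 at an adjusted p of 0.1, 13 with a trended and robust prior, 5 by gene with either rule, 84 with the replicate block and 4 to 34 when a sample was left out (34 without Hmga2 KO replicate 2, 5 and 4 without wild type replicate 1 or 3). The cause was not tested. Replicate numbers are those of the sample titles. The source names and descriptions number the samples otherwise and disagree with each other for Hmga2 KO replicate 2, so the block depends on the titles. By the titles, deviations of same-numbered samples from their group means correlated at 0.23, 0.31 and -0.17. Those of differently numbered samples correlated at -0.36 to 0.17. Whether the numbers pair the samples was not tested. The block leaves Hmga2 KO replicate 4, which has no partner, out of the contrast, and no neighbour gained a call. Signals near the background limit what could be seen for Wif1 and for the dim probe sets of Irak3, Lemd3 and Tmbim4.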
